A study of Mus musculus with 4 samples.

Results

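Pou5f1, Nanog and Sox2 encode the 3 transcription factors at the centre of the pluripotency network, and the open chromatin listed around them was taken from ATAC-seq of mouse embryonic stem cells (ESCs). In ATAC-seq a transposase cuts DNA that is not packed away, and peaks are the stretches where software found more cut fragments than around them. A peak was assigned to a gene when it touched the gene body or came within 100 kb of any transcript start of that gene in GENCODE mouse release 21. This gave 62 peaks out of 132789 in 4 peak lists. Merged where they shared at least 1 bp, they made 28 regions out of 52714: 13 around Pou5f1, 10 around Nanog and 5 around Sox2. The genes were chosen by name, not by their values, although it was already known from these lists that none of the 3 has a peak at its promoter.

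All 4 libraries came from E14 ESCs grown in serum with leukaemia inhibitory factor (LIF), which received a pLKO lentivirus and were collected 4 days after puromycin was first added. In 1 library the virus carried a hairpin against GFP (shGFP) and in 3 a hairpin against luciferase (shLuc replicates 1, 2 and 3). Neither target is a mouse gene, so both hairpins are non-targeting controls, and all the cells carry a hairpin vector. The labels do not say whether the shLuc replicates were separate cultures, so their spread may be technical. The lists hold 41943 peaks for shGFP and 17860, 41401 and 31585 for shLuc replicates 1, 2 and 3, with positions and no height. The lists carry no read counts, and the sequencing depth was not used here.

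OCT4 (the product of Pou5f1), SOX2 and NANOG bind their own and each other's genes and keep ESCs undifferentiated. OCT4 and SOX2 often bind side by side on a composite DNA element that joins an octamer-like part to a SOX part. Each gene has enhancers described outside these data: a proximal and a distal enhancer close upstream of Pou5f1, elements about 5 kb upstream, 45 kb upstream and 60 kb downstream of Nanog, and for Sox2 the regulatory regions 1 and 2 on either side of the gene and a far downstream control region.

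The promoters of the 3 genes differ in their content of CpG, the dinucleotide that marks most broadly active promoters, and are shown here to set beside the lack of a listed peak. Each sequence is the 250 bases before the first start in RefSeq (GRCm38.p6, plus strand), with every CpG in capitals.
Pou5f1 (chr17:35505782-35506031): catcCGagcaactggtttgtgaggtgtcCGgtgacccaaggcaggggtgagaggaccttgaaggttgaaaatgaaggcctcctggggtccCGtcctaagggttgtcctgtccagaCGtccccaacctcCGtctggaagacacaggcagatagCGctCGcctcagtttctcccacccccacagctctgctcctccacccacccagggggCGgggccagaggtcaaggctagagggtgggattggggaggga
Nanog (chr6:122707239-122707488): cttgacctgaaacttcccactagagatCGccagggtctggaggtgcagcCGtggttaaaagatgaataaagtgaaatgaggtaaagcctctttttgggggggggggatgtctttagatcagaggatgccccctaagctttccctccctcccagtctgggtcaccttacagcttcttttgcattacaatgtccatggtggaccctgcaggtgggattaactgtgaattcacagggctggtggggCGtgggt
Sox2 (chr3:34649745-34649994): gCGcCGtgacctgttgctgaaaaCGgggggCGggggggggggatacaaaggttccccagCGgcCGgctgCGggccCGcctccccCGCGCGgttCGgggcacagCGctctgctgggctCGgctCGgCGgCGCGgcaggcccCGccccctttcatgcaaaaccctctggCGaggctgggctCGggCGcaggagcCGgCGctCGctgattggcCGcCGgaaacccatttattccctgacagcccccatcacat
These 250 bases held 8 CpGs at Pou5f1, 3 at Nanog and 27 at Sox2. The RefSeq start of Sox2 lies 410 bp away from the GENCODE start and that of Pou5f1 14 bp away. For Nanog both are the same base.

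No library listed a peak within 1 kb of any transcript start of Pou5f1, Nanog or Sox2. Whether the lists as used here are complete at these places was not tested, so a missing peak is a statement about the lists and not about the chromatin. A lack of this kind was common, since 7717 of 21853 protein-coding genes (35.3%) had no promoter peak in any library, while 42.5% had one in all 4. The share differed with CpG content. Promoters were ranked by the CpG ratio, the observed number of CpGs over that expected from the C and G content, in 1000 bp around the first start, and cut into tertiles. In the lowest tertile 81% of genes had no promoter peak, in the middle tertile 20.7%, and in the highest tertile 4.24%, which is 309 of 7285 genes.

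**Figure D1:**
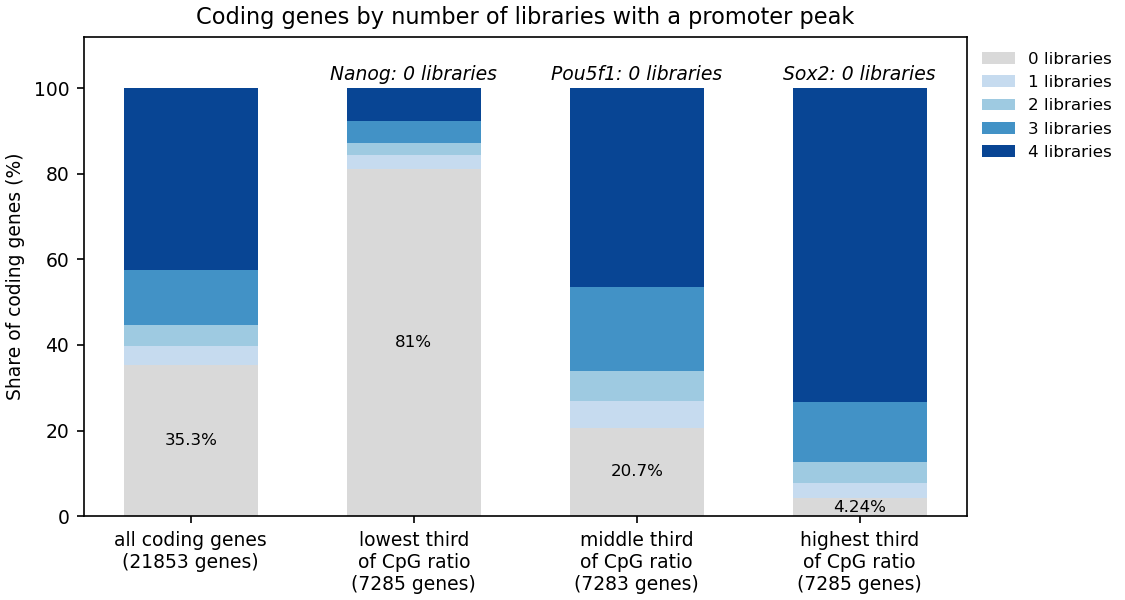
Share of protein-coding genes (vertical axis, percent) with a promoter peak in 0, 1, 2, 3 or 4 libraries, for all 21853 coding genes and for each tertile of the promoter CpG ratio. The tertile that holds each member is marked above its bar, and Sox2, with no promoter peak, stands in the tertile where 4.24% of genes have none.

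Nanog fell in the lowest tertile, with 17 CpGs and a ratio of 0.287, the tertile in which most genes had no listed promoter peak. Pou5f1 fell in the middle tertile, with 30 CpGs and a ratio of 0.332. Sox2 fell in the highest tertile, with 97 CpGs and a ratio of 0.961, above that of 96.4% of coding genes. In that tertile 73.2% of genes had a promoter peak in all 4 libraries. Reads that fit several places were put at 1 of them at random, so repeats were counted. Of the 1951 words of 50 bases in the 2 kb around each first start, none occurred more than once in the genome at any of the 3 genes. In the gene bodies, repeated words made up 10.5% at Pou5f1, 14.9% at Nanog and 0 of 2008 words at Sox2. No region lay inside any of the 3 gene bodies.

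The nearest listed peak to Pou5f1 (chromosome 17, 35506018 to 35510772, plus strand) was 1694 bp from a start in shLuc replicate 1. In the other libraries it was farther: 7932 bp in shGFP, 7971 bp in shLuc replicate 2 and 6974 bp in replicate 3. The peak in shLuc replicate 1 was 423 bp wide, reached from 2.12 to 1.69 kb upstream of the first start, and lay at the place of the distal enhancer, the element that drives Pou5f1 in naive ESCs. No other library listed a peak there, although shLuc replicate 1 has the shortest list. The central 300 bases of this peak are shown because they hold the composite element. Capitals mark matches to the motifs searched, on either strand.
Pou5f1 distal enhancer peak (chr17:35503964-35504263, GRCm38, plus strand): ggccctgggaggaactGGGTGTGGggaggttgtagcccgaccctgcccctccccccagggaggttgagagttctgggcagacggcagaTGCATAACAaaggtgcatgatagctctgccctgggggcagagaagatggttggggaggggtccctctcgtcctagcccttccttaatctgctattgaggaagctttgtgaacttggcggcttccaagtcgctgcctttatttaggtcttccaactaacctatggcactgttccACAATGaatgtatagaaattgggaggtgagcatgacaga
The match TGCATAACA is the core of the OCT4-SOX2 composite (searched as TGCATNACA). GGGTGTGG is a KLF motif on the minus strand (CCACACCC), and ACAATG is a SOX motif. Of the 28 regions around the 3 genes 1, this one, held the composite core in its central 300 bases, or 3.57%, against 0.939% of all 52714 regions. The Nanog promoter printed above holds the match TGCATTACA, which overlaps a SOX motif, and 0.627% of coding promoters held the core in the 250 bases before their start. A match is a description of the letters and does not show binding.

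Positions in kb are given from the first start of each gene. The next region beyond Pou5f1 was found in all 4 libraries. It lay 9.78 to 11.2 kb downstream of the first Pou5f1 start, over the shared promoter of Tcf19 and Cchcr1, and was 479 bp wide in shGFP and 395, 410 and 1387 bp wide in shLuc replicates 1, 2 and 3. Tcf19 and Cchcr1 start head to head there, and they were the 2 of the 9 coding neighbours of Pou5f1 with a promoter peak in every library. The other region found in all 4 libraries was intergenic, 85.3 to 85.8 kb upstream, with widths of 549, 243, 345 and 480 bp in the same order. Repeated words made up 25.4% of it, and reads over those could have come from another copy.

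A group of 3 upstream regions lay at promoters of class I genes of the major histocompatibility complex, whose products present peptides to immune cells. At H2-Q7 the region was 1590 bp across, the widest around Pou5f1, with peaks of 853 bp in shGFP, 1512 bp in shLuc replicate 2 and 1577 bp in replicate 3. At H2-Q10 the peaks were 393, 795 and 1364 bp wide in those libraries. At H2-Q6 there were 2 peaks, 1504 bp in shLuc replicate 2 and 620 bp in replicate 3. These genes are near copies of each other, and repeated words made up 47.5% of the region at H2-Q7, 20.8% at H2-Q10 and 47.7% at H2-Q6. Reads over the repeated words could have come from another copy, while the remaining words of each region occur once in the genome.

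The remaining 7 regions around Pou5f1 were away from promoters. Upstream, a region at 70.9 to 71.4 kb had peaks of 429, 380 and 554 bp in shGFP and shLuc replicates 1 and 2, with 57.1% of repeated words. A region at 40.1 to 40.6 kb had peaks of 348 bp in shGFP and 544 bp in shLuc replicate 2, with 12.3% of repeated words. A region at 15 to 15.6 kb had peaks of 247 bp in shGFP and 613 bp in shLuc replicate 3. None of these 3 was listed in every library. Downstream, at 33.5 to 34 kb, there were peaks of 375 bp in shGFP and 423 bp in shLuc replicate 2, and the same libraries had peaks of 622 and 505 bp at 50.9 to 51.6 kb, over an exon of Cdsn, a skin adhesion gene. At 78.3 to 78.9 kb there were peaks of 511, 292 and 427 bp in shGFP and shLuc replicates 1 and 2. At 84.6 to 85.5 kb there were peaks of 884 bp in shGFP and 899 bp in shLuc replicate 3.

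**Figure D2:**
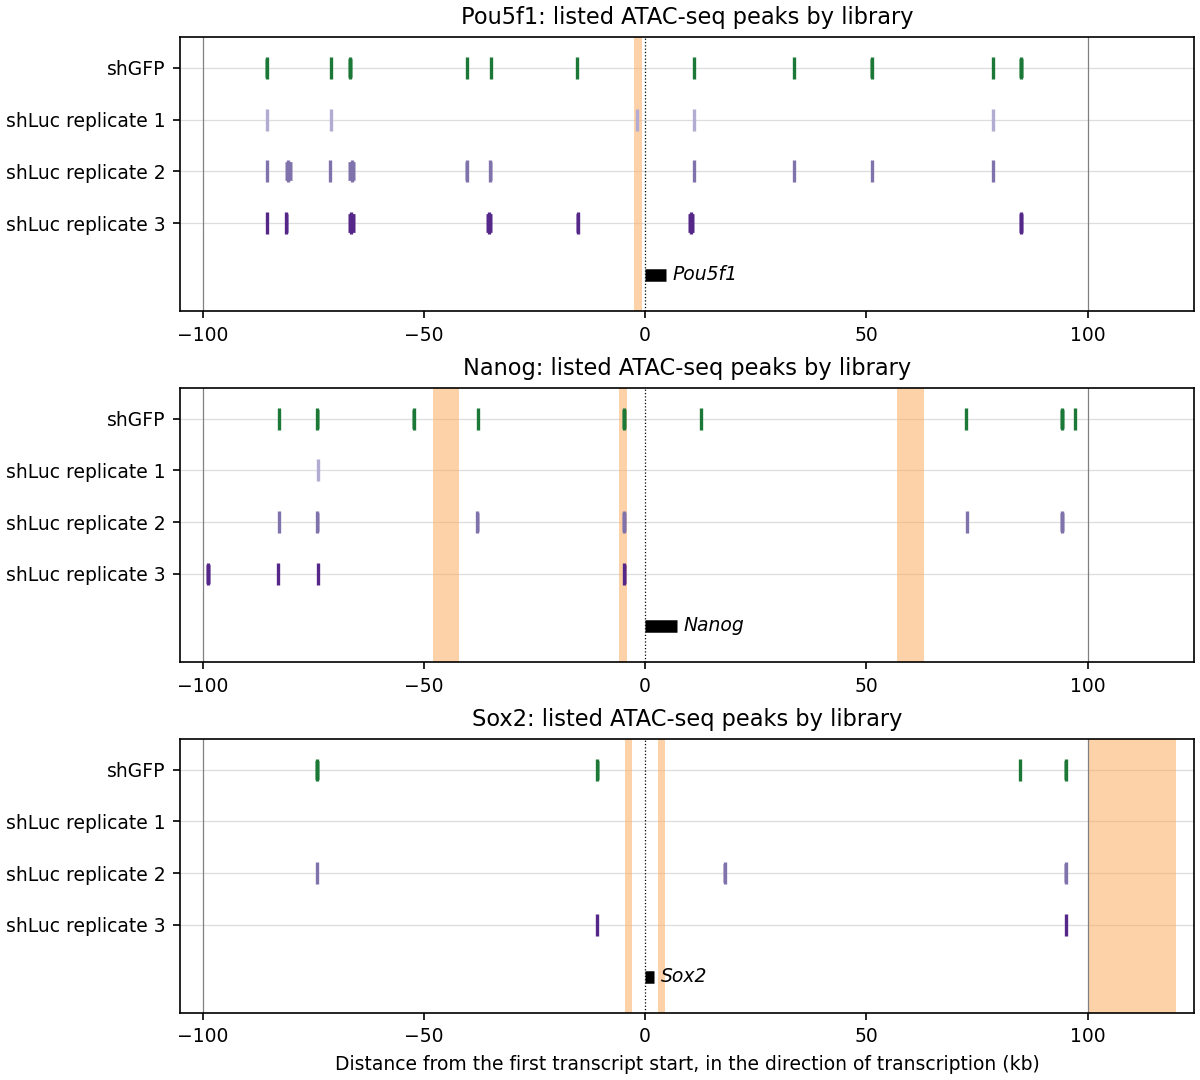
Listed peaks of each library (rows) around Pou5f1, Nanog and Sox2, by distance from the first transcript start in kb. Black bars are the genes, orange bands the known enhancer windows and grey lines mark 100 kb. No peak lies on a gene, shLuc replicate 1 alone has a peak in the Pou5f1 distal enhancer, and the other 3 libraries share the peak just upstream of Nanog.

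Nanog (chromosome 6, 122707489 to 122714633, plus strand) had its nearest region at the place of its well known enhancer about 5 kb upstream. The region reached from 5.3 to 4.29 kb upstream of the first start, with a peak of 885 bp in shGFP, 830 bp in shLuc replicate 2 and 774 bp in replicate 3. These 3 peaks overlapped and were wider than the median peak of their lists, 655, 642 and 663 bp. shLuc replicate 1 listed none there, and its nearest peak to Nanog was 73816 bp from a start, against 4416, 4288 and 4288 bp in shGFP and shLuc replicates 2 and 3. The central 300 bases are shown because this region was the nearest to Nanog and the one at a known enhancer that was listed in more than 1 library.
Nanog upstream peak (chr6:122702546-122702845, GRCm38, plus strand): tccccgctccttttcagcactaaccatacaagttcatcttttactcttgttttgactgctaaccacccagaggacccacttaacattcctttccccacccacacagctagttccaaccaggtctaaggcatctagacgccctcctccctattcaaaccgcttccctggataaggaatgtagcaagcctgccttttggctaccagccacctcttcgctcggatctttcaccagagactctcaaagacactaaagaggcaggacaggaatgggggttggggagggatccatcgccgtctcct
None of the 6 motifs searched had a match in these 300 bases, so there are no capitals. This says only that those letters are not in this window.

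The region around Nanog found in all 4 libraries was intergenic, 73.7 to 74.3 kb upstream of the first start, and had widths of 536 bp in shGFP and 327, 548 and 402 bp in shLuc replicates 1, 2 and 3. It was the single peak of shLuc replicate 1 in this window. The genes on that side are themselves active in pluripotent cells. Gdf3, a TGF-beta family ligand, had a promoter peak of 974 bp in shLuc replicate 3 and in no other library. Dppa3, a maternal factor that protects DNA methylation in the zygote, had none within 1 kb, and its nearest region was 1469 bp away.

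On the downstream side the widest region around Nanog, 1051 bp, lay at the promoter of Slc2a3, the glucose transporter GLUT3, with peaks of 1051 bp in shGFP and 1009 bp in shLuc replicate 2. The same libraries had narrower peaks, 238 and 288 bp, at a second Slc2a3 start 72.5 to 72.8 kb downstream of the first Nanog start. Of the other regions, the one 82.5 to 83.1 kb upstream, beside the small RNA gene Gm26168, had peaks of 415, 377 and 413 bp in shGFP and shLuc replicates 2 and 3. It is the region that lay 1469 bp from Dppa3. The region 37.6 to 38.2 kb upstream had peaks of 343 bp in shGFP and 560 bp in shLuc replicate 2. The last 3 were found in shGFP alone: 516 bp at 52.1 to 52.6 kb upstream, 380 bp at 12.4 to 12.8 kb downstream and 550 bp at 96.9 to 97.5 kb downstream.

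Sox2 (chromosome 3, 34650405 to 34652461, plus strand), a gene with a single exon inside the long noncoding RNA gene Sox2ot, had the fewest regions. Its nearest peak was 10444 bp from the start in shGFP, 17669 bp in shLuc replicate 2 and 10570 bp in replicate 3. shLuc replicate 1 had no peak in the window at all, and its nearest lay 144983 bp away. The region 10.4 to 11.1 kb upstream, at a start of Sox2ot and beside Mir1897, had peaks of 617 bp in shGFP and 487 bp in shLuc replicate 3. A peak of 601 bp at 17.7 to 18.3 kb downstream, in an intron of Sox2ot, was listed in shLuc replicate 2 alone. The 2 regions between them bound a stretch of 28.1 kb over the Sox2 start with no listed peak, against 11.5 kb at Pou5f1 and 16.7 kb at Nanog. Over the 7717 coding genes with no promoter peak the median stretch was 77.7 kb, and 81.1% of those genes had a longer one than Sox2. Over all coding genes 33.1% had a longer one than Sox2, 41.9% than Pou5f1 and 38.9% than Nanog.

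The widest region around Sox2, 912 bp, lay 73.8 to 74.7 kb upstream in an intron of Sox2ot, with peaks of 912 bp in shGFP and 352 bp in shLuc replicate 2. A peak of 457 bp at 84.5 to 84.9 kb downstream was listed in shGFP alone. The region found in most libraries was 94.8 to 95.3 kb downstream, short of the control region, with peaks of 555 bp in shGFP, 584 bp in shLuc replicate 2 and 460 bp in replicate 3. The central 300 bases are shown as the open site most often listed in the Sox2 window.
Sox2 downstream peak (chr3:34745300-34745599, GRCm38, plus strand): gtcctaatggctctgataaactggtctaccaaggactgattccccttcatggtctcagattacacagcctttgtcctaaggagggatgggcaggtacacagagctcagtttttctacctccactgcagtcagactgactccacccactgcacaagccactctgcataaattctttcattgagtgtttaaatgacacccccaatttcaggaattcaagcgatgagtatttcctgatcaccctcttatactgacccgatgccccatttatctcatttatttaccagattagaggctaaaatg
It also held no match to the 6 motifs.

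**Figure D3:**
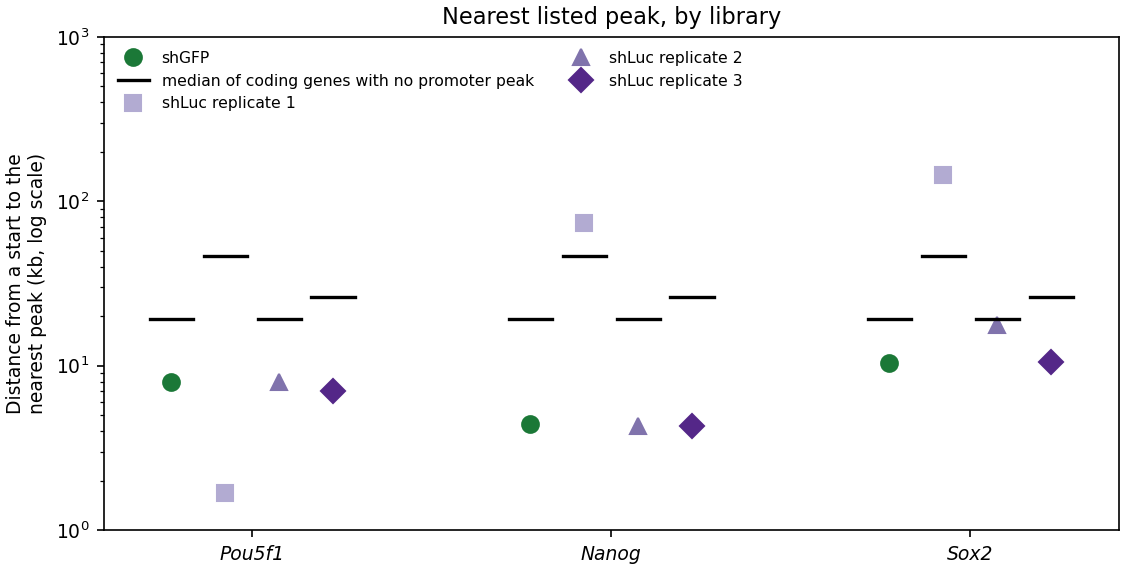
Distance from a transcript start to the nearest listed peak (vertical axis, kb, log scale) for each gene and library, with a black bar at the median of the 7717 coding genes that have no promoter peak in any library. Of the 12 points, 10 lie below their bar, and those of Nanog and Sox2 in shLuc replicate 1, at 73.8 and 145 kb, lie above it.

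All 3 genes lay nearer to a listed region than the median coding gene without a promoter peak. That median distance from a start to the nearest region was 15.2 kb over 7717 genes. The nearest region was farther than at Pou5f1 (1.69 kb) for 95.3% of them, farther than at Nanog (4.29 kb) for 80.8% and farther than at Sox2 (10.4 kb) for 60.9%. Of these 7717 genes, 5902 were in the lowest CpG tertile and 309 in the highest, the tertile of Sox2. Against all coding genes the 3 lay farther from a region than most. That was fixed in advance, since they have no promoter peak and 64.7% of coding genes have one in at least 1 library. The nearest region was nearer than at Pou5f1 for 66.3% of all coding genes, than at Nanog for 71.4% and than at Sox2 for 78.5%. Without the peak of shLuc replicate 1 the nearest region to Pou5f1 was 6974 bp away.

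Of 8 windows placed at the known enhancers, 2 held a peak in any library. These were the distal enhancer of Pou5f1 (1.6 to 2.5 kb upstream, shLuc replicate 1) and the 5 kb enhancer of Nanog (4 to 6 kb upstream, the other 3 libraries). Over all 21853 coding genes, a window at the same distance from the first start held a peak of any library in 2.86% of genes for the first and 6.84% for the second. No peak was listed in the proximal enhancer window of Pou5f1 (0.8 to 1.5 kb upstream, 7.83% of coding genes), or at Nanog 42 to 48 kb upstream (21.3%) and 57 to 63 kb downstream (21.0%). Nor was any listed at the Sox2 regulatory regions 1 (3 to 4.5 kb upstream, 4.15%) and 2 (3 to 4.5 kb downstream, 3.58%) or in the window of the Sox2 control region (100 to 120 kb downstream, 48.5%). The Pou5f1 proximal window overlaps the promoter limit of 1 kb, within which Pou5f1 had no peak. Over coding genes with no promoter peak, that window held a peak in 1.33%. Summed over the 8 windows, the shares over all coding genes come to 1.16 windows, and each library had a peak in 1 window. Most of that sum comes from the wide windows with shares of 48.5%, 21.3% and 21.0%, which held no peak. The 2 windows with a peak had shares of 2.86% and 6.84%. Whether 2 windows with a peak differ from what coding genes show was not tested. Repeated words were rare in the 6 windows with no peak, at most 4.03%.

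The windows of the 3 genes were not alike in how many peaks they held. Around Pou5f1 there were 11 peaks in shGFP and 5, 10 and 7 in shLuc replicates 1, 2 and 3. Around Nanog there were 9, and 1, 6 and 4. Around Sox2 there were 4, and 0, 3 and 2. The order Pou5f1, Nanog, Sox2 held in all 4 libraries. Over coding genes the median was 6 peaks in shGFP and 3, 6 and 4 in shLuc replicates 1, 2 and 3, so Pou5f1 was above the median in every library and Sox2 below it. The 13 merged regions of Pou5f1 exceeded the count of 87% of coding genes, the 10 of Nanog that of 68.4%, and the 5 of Sox2 that of 25.7%. Repeated words made up 12.3% to 57.1% of each Pou5f1 region between 34.6 and 85.8 kb upstream. Reads from 1 copy could be listed at several there, and whether this raised the Pou5f1 count was not tested. The window of Pou5f1 holds starts of 9 other coding genes, that of Nanog 3 and that of Sox2 none. A link between these numbers and the peak counts was not tested. Of these 12 neighbours 7 had a promoter peak in at least 1 library, against 64.7% of all coding genes, and 2 had one in all 4, against 42.5%. Of the 28 regions, 9 (32.1%) lay within 1 kb of a start of another gene, near the 32.6% of all regions within 1 kb of a start. Another 16 (57.1%) lay between genes, against 36% of all regions, 2 (7.14%) in introns, against 25.8%, and 1 (3.57%) in an exon, against 5.66%.

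**Figure D4:**
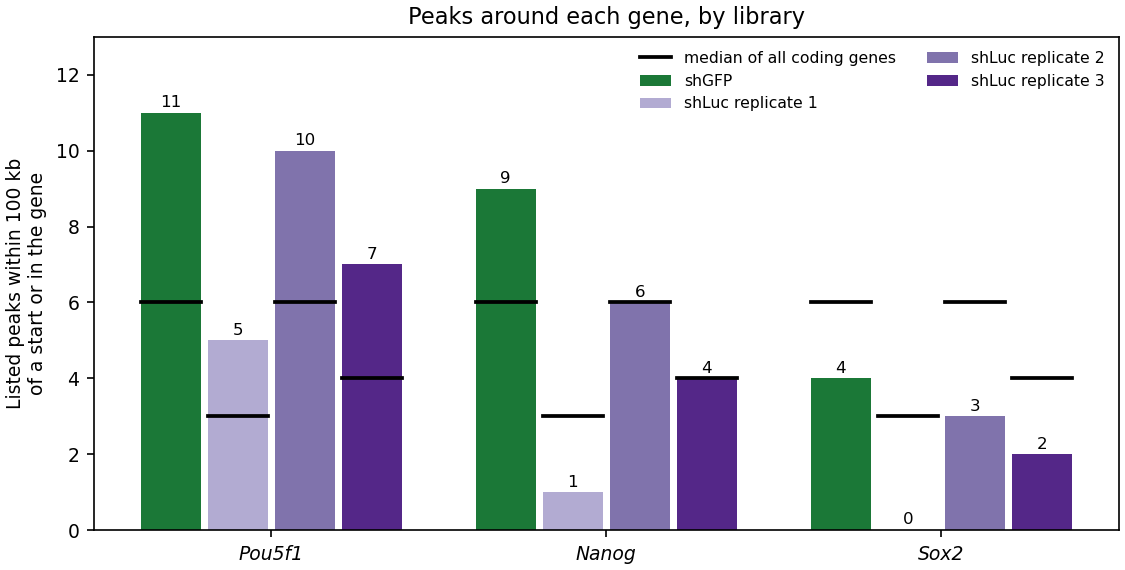
Listed peaks in the gene body or within 100 kb of a start (vertical axis) for each gene, 1 bar per library, with a black line at the median of all coding genes in that library. Pou5f1 stands above the line in all 4 libraries, from 5 to 11 peaks, and Sox2 below it, from 0 to 4.

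The comparison of shGFP with shLuc asked how far the control libraries differ at these genes. shGFP had more peaks at each gene: 11 against a shLuc mean of 7.33 ± 2.52 (SD, n = 3) at Pou5f1, 9 against 3.67 ± 2.52 at Nanog and 4 against 1.67 ± 1.53 at Sox2. Each difference was larger than the shLuc SD. No test was possible, since the smallest exact permutation p for 1 library against 3 is 0.25. shGFP also has the longest list, and with the widest 17860 peaks of each list the difference at Pou5f1 turned to -2.67 and those at Nanog and Sox2 shrank to 0.333 and 1. Peaks in the 3 windows made up 0.0572% of the shGFP list and 0.0336%, 0.0459% and 0.0412% of the shLuc lists.

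The regions around the 3 genes were seldom shared by every library. Of the 28, 3 (10.7%) had a peak in all 4 libraries, against 27.2% of all regions, and 7 (25%) in 1 library, against 28.3%. shLuc replicate 1 had a peak in 21.4% of them and shLuc replicate 3 in 46.4%, compared with 33.8% and 59.8% of all regions. shGFP with 85.7% and shLuc replicate 2 with 67.9% stood at 79.4% and 78.4% over all regions. Without shLuc replicate 1 the regions found in all 3 remaining libraries were 4 at Pou5f1, 3 at Nanog and 1 at Sox2, or 29.6% of 27, against 50.5% of all regions merged in the same way. Without replicate 2 the shares were 11.1% and 31.2%, and without replicate 3 they were 18.5% and 30.5%. Of the shGFP peaks in the windows, 20.8%, 70.8% and 45.8% had a counterpart in shLuc replicates 1, 2 and 3, below the 38.7%, 79.8% and 66.9% over its whole list. Taken from the shLuc side, replicates 1, 2 and 3 shared 83.3%, 89.5% and 84.6% of their window peaks with shGFP, against 90.9%, 80.8% and 88.8% over their whole lists.

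The median width of the peaks in the windows was 513.5 bp in shGFP, 353.5 bp in shLuc replicate 1, 548 bp in replicate 2 and 620 bp in replicate 3. In each case this was below the median of the whole list, 655, 603, 642 and 663 bp. The window medians rest on 24, 6, 19 and 13 peaks. Of all peaks in each list, 33.6%, 17.2%, 38.8% and 45% were narrower than the window median. The median GC content of the 28 regions was 50%, compared with 52.6% for all regions, and the median share of bases in repeats was 14.1%, compared with 11%. No region had at least 50% of its bases in repeats, compared with 20.1% of all regions.

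Motifs of the pluripotency factors were few in the central 300 bases of the 28 regions. Beside the composite core at the Pou5f1 distal enhancer, the octamer ATGCAAAT was found in 3 regions, or 10.7%, against 3.05% of all regions. It lay 33.5 to 34 kb downstream of Pou5f1, in the region beside Gm26168 and nearest to Dppa3 upstream of Nanog, and in the Sox2ot intron downstream of Sox2. The SOX motif ACAATG, which is short, was in 3 regions, or 10.7%, against 12.4% of all regions. The KLF motif CCACACCC was in 1 region, or 3.57%, against 3.32% of all regions. The ESRRB motif TCAAGGTCA (0.649% of all regions) and the CTCF core AGGGGGCGC (1.43%) were in none. Both strands were searched, and the SOX motif can overlap the composite.

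Other genes of the network gave a mixed picture at their promoters. Of 30 pluripotency genes, 8 had a promoter peak in all 4 libraries, among them Zfp42 and Tfcp2l1 (26.7%, below the 42.5% of all coding genes). Another 11 had none (36.7%, near the 35.3% of all coding genes). Those with none included Prdm14, Fgf4 and Lefty1. Of 12 housekeeping genes 4 had none (33.3%), among them Gapdh and Hprt, and 41.7% had one in all 4 libraries. Of 12 lineage genes 6 had none (50%), among them Gata4 and Pax6, and 16.7% had one in all 4. The lineage genes Sox17 and Eomes, which act in endoderm and mesoderm, had a promoter peak in all 4 libraries, so these counts are no check of the ESC label.

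The 100 kb limit fell in gaps between regions. The regions just inside it were 85.3 kb upstream and 81.8 kb downstream of a start at Pou5f1, 98.3 and 96.9 kb at Nanog, and 73.8 and 94.8 kb at Sox2. The first beyond it were at 115956 and 125324 bp at Pou5f1, 116073 and 103106 bp at Nanog, and 180060 and 123329 bp at Sox2. The region just beyond the limit downstream of Nanog, at the promoter of Gm5112, was found in all 4 libraries.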

How the data were processed

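The authors deposited 1 peak list per library with the chromosome, start and end of each peak and no score. The study's methods describe alignment to mm10 by bowtie2, with 1 position kept per read and ties broken at random, removal of reads on the mitochondrial genome or unassigned sequences, and use of concordant pairs only. The submitters' processing notes name bcl2fastq, Bowtie2 and MACS2. The peak threshold and any shift for the transposase are not given in the sources used here. Of 132789 peaks, 0 ran past the end of a GRCm38 chromosome. GRCm38 and mm10 share coordinates, and positions are counted from 1.

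Lists were read with Python 3.11.15 and numpy 2.4.6. Distances run from the nearest transcript start to the nearest edge of a peak, and peaks sharing at least 1 bp were merged. The background was the same measure over 21853 protein-coding genes. Repeats are the lower-case bases of the reference, and words of 50 bases were counted on both strands (numba 0.67.0). Promoter sequences were matched by symbol in RefSeq for all 3 genes. Enhancer windows were placed by hand from general knowledge of their distances. The functions gave the known answer in 5 of 5 checks on simulated data.

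Named regions were, for each gene, the nearest, the widest, those found in all 4 libraries and those in an enhancer window. The others are listed to account for every peak. The genes, lists and windows were chosen with earlier results of these data known. The single shGFP library allows no test, and values are per library with the SD of shLuc. Alternatives were lists cut to their widest peaks, other windows, merging distances, promoter limits and start sites, and leaving out each shLuc library.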

Additional observations from a re-analysis of the deposited data

How the results depend on the processing

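No paired analysis was possible, because there is a single shGFP library and the labels name no pairs. In 153 recomputed values, for 24 results and 12 settings, 119 moved by less than the shLuc SD or, for a count, by no more than 1.5 times. This count is no measure of stability. Enhancer windows and promoters with 0 peaks could only stay at 0 where a setting removed peaks or libraries or narrowed a limit. The move of the Sox2 distance from 10444 to 73759 bp also falls under the SD, which holds the 144983 bp of shLuc replicate 1. With the widest 50% of each list there were 5, 3 and 1 regions around Pou5f1, Nanog and Sox2, 0 of them in all libraries, the nearest region to Pou5f1 was at 6974 bp and that to Sox2 at 73759 bp, the Pou5f1 distal enhancer had a peak in 0 libraries, the hairpins differed by -0.333 peaks at Pou5f1 (SD 2.08) and 0.667 at Nanog, and 42.8% of coding genes had no promoter peak. Fewer peaks enter that setting. With the widest peaks at equal length there were 4 regions at Nanog and 1 at Sox2, 0 in all libraries, the Sox2 distance was again 73759 bp, and the difference was -2.67 at Pou5f1 (SD 1.53) and 0.333 at Nanog. A window of 50 kb held 7, 3 and 2 regions, of which 1 at Pou5f1 and 0 at Nanog were in all libraries, with differences of 2 at Nanog and 0.333 at Sox2. A window of 120 kb held 3 regions in all libraries at Nanog. With start sites within 2 kb Pou5f1 had a promoter peak in 1 library. Within 5 kb it had 1, Nanog had 3, and 27.6% of coding genes had none.

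Leaving out 1 shLuc library gave 2 to 4 regions in all remaining libraries at Pou5f1, 1 to 3 at Nanog and 0 to 1 at Sox2, most without replicate 1, where fewer libraries must share a region (at Pou5f1 it was 4 without replicate 3 as well). It put the nearest region to Pou5f1 at 1694 to 6974 bp and a peak in the Pou5f1 distal enhancer in 0 to 1 libraries, the far value and the 0 without replicate 1. Leaving out 1 library gave differences between the hairpins of 2.5 to 5 at Pou5f1, 4 to 6.5 at Nanog and 1.5 to 3 at Sox2. Enhancer windows under other settings and the shares of all regions with 1 library left out were added after the data were seen. Depth was not used, and a site missing from a list may lie under its threshold.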
